A study of Homo sapiens with 23 samples.

Results

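RNA from HCT116 cells that had lost *AGO1* alone was compared with RNA from wild-type HCT116 cells. The comparison used 6 of the 15 RNA samples in a series of 23 samples, namely 3 *AGO1* knockout samples (AGO1_KO 1 to 3) and 3 wild-type samples (WT 1 to 3). HCT116 is an established human colorectal carcinoma cell line, and the wild-type and knockout cells share that background. The other 9 RNA samples came from lines knocked out for *AGO2*, for *AGO1* and *AGO2* (*AGO1/2*) or for *AGO1*, *AGO2* and *AGO3* (*AGO1/2/3*), 3 of each, and are used here for the estimate of the spread and for values set beside those of the *AGO1* knockout. The column names of the *AGO2* files carry a word for another quantification mode (quasi), so that mode and genotype cannot be told apart in that line. Each knockout genotype was a single line edited with CRISPR/Cas9, and the paper describes no edited control line. The loss of *AGO1*, the editing and the history of the *AGO1* knockout line therefore cannot be told apart. Total RNA was depleted of ribosomal RNA and sequenced as a stranded paired-end library.

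Argonaute proteins bind microRNAs (miRNAs) and carry them to partly complementary sites, most often in the 3′-untranslated region (3′-UTR) of an mRNA. The bound Argonaute recruits a TNRC6 scaffold protein, which brings deadenylases and decapping enzymes to the transcript. *AGO1* is one of the 4 human paralogues, all of which load miRNAs, while *AGO2* is the paralogue best known for slicing a fully matched target.

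Mature sequences of miRNAs whose copy number had been measured in these cells are printed because the base pairing of their seeds is used below to sort genes into those with and without a matching site. Sequences are from RefSeq (GRCh38.p14), 5′ to 3′, and capitals mark the seed, bases 2 to 8.
let-7a-5p: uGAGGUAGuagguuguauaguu
miR-21-5p: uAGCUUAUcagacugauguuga
miR-27a-3p: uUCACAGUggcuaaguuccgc
miR-29a-3p: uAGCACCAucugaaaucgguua
miR-125b-5p: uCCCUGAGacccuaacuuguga
The 5 seeds differ from one another, so that no pair of these miRNAs belongs to one seed family.

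Between 29140175 and 32381721 estimated counts per sample were assigned to genes in wild-type cells and between 27709971 and 31465835 in *AGO1* knockout cells. Levels are given as normalized counts, which are estimated counts scaled by the TMM method to a mean library size of 33192863. Genes of chromosome Y were left out. After a filter on low counts 22823 genes were tested, with a biological coefficient of variation of 0.152 between replicates. A gene was called higher or lower at an adjusted p of 0.05 or less, by the quasi-likelihood test of edgeR and Benjamini-Hochberg adjustment over all genes tested, and all adjusted p below are of this kind. The 3 samples of a line are biological replicates, and an exact two-sided permutation test of 3 against 3 cannot give a p under 0.1, so that the calls rest on the fit across genes. A fold against a line with 3 counts or fewer in every sample is given as a lower bound, computed against 3 counts per library, and it covers counting error only.

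A single wild-type sample and a single knockout sample stood apart from the others of their line. On the second principal component, which held 17.2% of the variance of the 15 samples, WT 2 lay at 55.28 and AGO1_KO 3 at 46.09, while the other wild-type samples lay at 1.69 and 10.47 and the other *AGO1* knockout samples at -3.38 and 17.41. Genes of DNA replication were lower in WT 2 than in the other wild-type samples by a median log2 difference of -1.43, and lower in AGO1_KO 3 than in the other knockout samples by -0.85. Genes of the ATF4 and ER stress response were higher in WT 2 by a median log2 difference of 0.92 and in AGO1_KO 3 by 0.26. Counts of called genes are therefore also given without this pair of samples.

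The cells carried epithelial markers. Of 12 markers of colorectal epithelium 9 were tested, *EPCAM* and the keratin genes *KRT8*, *KRT18* and *KRT19* had at least 4770 counts in every sample, *CDX1* had 0 counts in all 6 samples, *VIL1* had at most 9 and *LGALS4* at most 13. The summed level of the 12 markers was 1773 to 2008 counts per 1000000 counts (CPM) in wild-type cells and 1372 to 1518 CPM in *AGO1* knockout cells. Of 24 markers of other cell types 15 were tested, 5 had 3 counts or fewer in all 6 samples, and their summed level was 54.5 to 73.7 CPM in wild-type cells and 47.0 to 51.1 CPM in knockout cells. *CD3E* and *HBB*, which mark T cells and red blood cells, had at most 1 and 2 counts, and *AFP* had 0. Other members of this list were detected, with 302 to 863 counts of *COL1A1*, 280 to 665 of *MAP2*, 169 to 278 of *ACTA2* and 104 to 139 of *MITF*. Among the colorectal markers tested, *KRT20* and *CDH17* had at most 22 and 14 counts. In RNA from whole cultures, fewer cells of a type and less RNA per cell cannot be told apart.

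The *AGO1* transcript itself was reduced in *AGO1* knockout cells and was still present. *AGO1* (ENSG00000092847) lies on chromosome 1 from 35869808 to 35930532 on the plus strand (GENCODE v44, GRCh38). It had 4587, 3579 and 4861 normalized counts in the 3 wild-type samples and 1141, 1067 and 1309 in the 3 *AGO1* knockout samples. The highest knockout sample lay below the lowest wild-type sample, and the log2 fold change was -1.89 (standard error (SE) 0.12, adjusted p = 2.18e-07), which left 27.0% of the wild-type level.

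No other gene of the Argonaute and TNRC6 set passed the edgeR test, which called 8.62% of all genes in either direction. *AGO2* had 12570, 15247 and 12675 normalized counts in wild-type cells and 11094, 12068 and 11627 in *AGO1* knockout cells, which do not overlap, with a log2 fold change of -0.22 (adjusted p = 0.212). The log2 fold change of *AGO3*, the neighbour of *AGO1* on chromosome 1, was -0.33 (adjusted p = 0.106, and 0.0373 when scaled by total counts), and *AGO4*, the other neighbour, -0.31 (adjusted p = 0.475). *TNRC6A* and *TNRC6C* had log2 fold changes of 0.01 and 0.13, and *TNRC6B*, a scaffold that links Argonaute to the deadenylases, had 0.34 (adjusted p = 0.0731, and 0.0248 by DESeq2). *AGO1* had log2 fold changes against the same wild-type samples of 0.29, -1.84 and -2.01 in the *AGO2*, *AGO1/2* and *AGO1/2/3* lines.

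The enzymes that make miRNAs were not called by edgeR. *DICER1*, which cuts precursor hairpins into miRNA duplexes, had 3167, 3443 and 3519 normalized counts in wild-type cells and 4553, 4414 and 3803 in *AGO1* knockout cells. All 3 knockout samples lay above the wild-type samples, with a log2 fold change of 0.33 (SE 0.10, adjusted p = 0.0613, 0.0375 by DESeq2 and 0.0324 without WT 2 and AGO1_KO 3). The log2 fold change of *TARBP2*, the double-stranded RNA binding partner of Dicer, was -0.14 (adjusted p = 0.597). Of 26 tested genes of miRNA biogenesis and turnover 0 were called by edgeR and 1 by DESeq2, 2 had an unadjusted p under 0.05, and the median log2 fold change was 0.01 beside -0.01 over all genes tested. The genes used by the study to normalize qPCR, *HPRT1* and *SNRNP200*, had log2 fold changes of 0.13 and 0.32 and were not called.

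**Figure D1:**
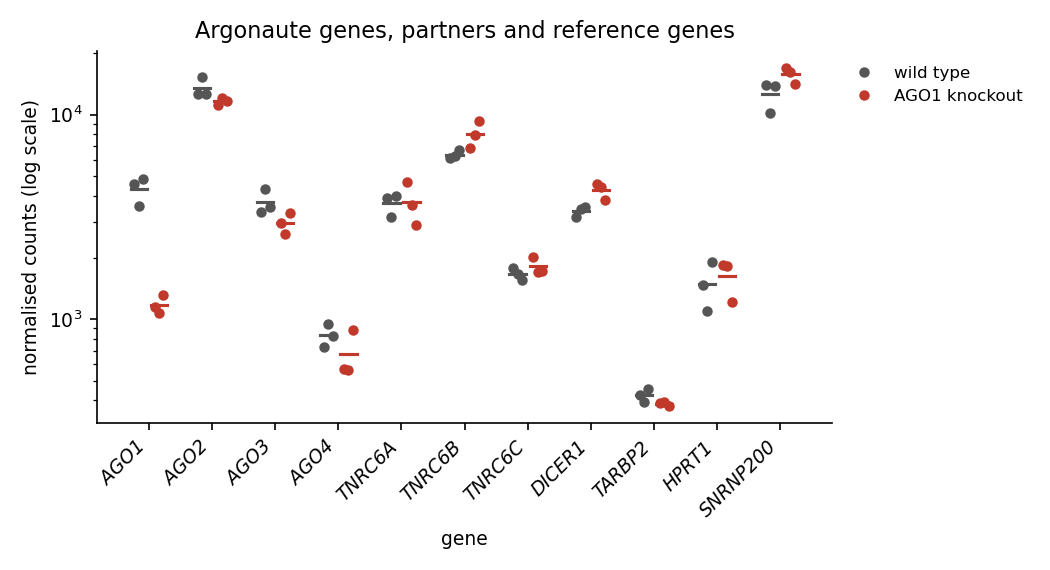
Normalized counts (log scale) of the Argonaute genes, the TNRC6 genes, *DICER1*, *TARBP2* and 2 reference genes in each wild-type sample (grey) and each *AGO1* knockout sample (red), with a bar at the mean of the 3 samples. *AGO1* falls from 3579 to 4861 in wild-type cells to 1067 to 1309 in knockout cells. None of the other genes was called by edgeR, although the groups do not overlap for *AGO2*, *AGO3*, *TNRC6B*, *DICER1*, *TARBP2* and *SNRNP200*.

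Deadenylation and decapping genes, the machinery downstream of TNRC6, gave 1 call in each direction among 31 tested (3.23% each). That is close to the 3.15% of all genes called higher and below the 5.47% called lower. *PAN2*, the catalytic subunit of the PAN2-PAN3 deadenylase, had 1455, 2136 and 1559 normalized counts in wild-type cells and 570.2, 560.2 and 815 in *AGO1* knockout cells. It fell by 1.40 on the log2 scale (SE 0.19, adjusted p = 0.000364), with no overlap between the groups, and its log2 fold changes were -1.11, -1.05 and -0.99 in the *AGO2*, *AGO1/2* and *AGO1/2/3* lines against the same wild-type samples. *DCP1B*, a decapping cofactor, rose by 0.70 (SE 0.12, adjusted p = 0.00182).

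Between *AGO1* knockout and wild-type cells 91.38% of tested genes were not called, which does not show that their levels were the same. In *AGO1* knockout cells 720 genes were higher (3.15% of 22823) and 1248 were lower (5.47%). Of the 1968 called genes 63.41% were lower. The median log2 fold change over all tested genes was -0.01, 10% of them lay below -0.57 and 10% above 0.45. At least 2-fold changes were called for 278 higher (1.22%) and 487 lower genes (2.13%), and at least 4-fold changes for 71 and 114. The 2 groups of samples did not overlap in 1927 of the 1968 called genes, where 23.1% of all tested genes did not overlap.

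How many genes passed depended on which samples set the spread. When only the 6 samples compared were fitted, 212 genes were higher and 423 lower, 623 of the 1968 genes (31.66%) were called again, and 0 of the 1968 had the opposite sign. Without WT 2 and AGO1_KO 3 there were 580 higher and 1228 lower genes, and 1342 (68.19%) of the 1968 were called again. Without AGO1_KO 2 there were 389 higher and 562 lower genes, and without AGO1_KO 1 there were 506 higher and 639 lower. Scaling by total counts alone gave 509 higher and 1972 lower genes.

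The calls varied with base composition. Protein-coding genes were split into quartiles by the GC content of their longest transcript. In the quartile of lowest GC content (29.2% to 41.8%) 3.64% of genes were higher and 2.4% lower, and in the quartile of highest GC content (56.4% to 76.0%) 0.94% were higher and 15.57% lower, beside 2.6% and 6.89% of all protein-coding genes. The median log2 fold changes of these quartiles were 0.02 and -0.17.

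The same measure was taken in each sample as the median log2 difference from the wild-type mean in the highest quartile minus that in the lowest, over 12923 coding genes with at least 1 CPM. It was -0.01, -0.04 and 0.05 in the wild-type samples and -0.23, -0.24 and -0.07 in the *AGO1* knockout samples, so that AGO1_KO 3 lay closest to wild-type cells. It ranged from -0.31 to -0.20 in *AGO2* knockout cells, from -0.09 to 0.04 in *AGO1/2* knockout cells and from -0.28 to -0.11 in *AGO1/2/3* knockout cells. With offsets that remove a smooth trend over GC content from each sample, 800 genes passed as higher and 897 as lower, and 1423 (72.31%) of the 1968 genes were called again. Whether the trend arose in the cells or in the libraries was not tested, and calls with the corrected offsets are given below beside many of the gene groups.

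**Figure D2:**
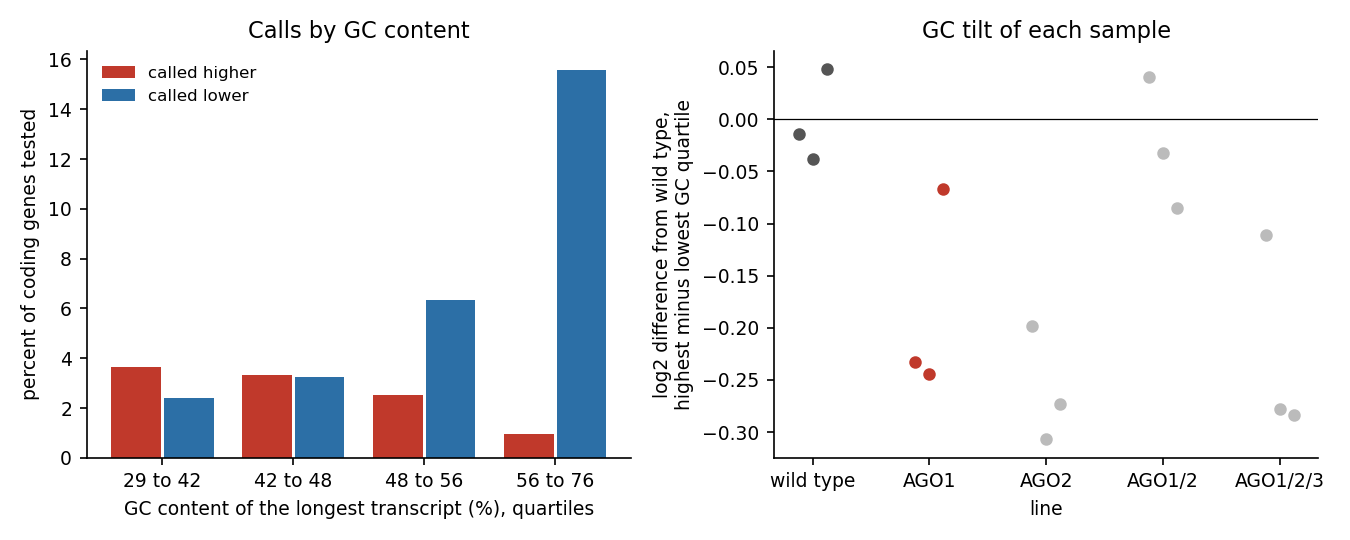
Left, percent of tested protein-coding genes called higher (red) and lower (blue) in *AGO1* knockout cells in 4 quartiles of the GC content of the longest transcript; the lower calls rise from 2.4% to 15.57% and the higher calls fall from 3.64% to 0.94%. Right, median log2 difference from the wild-type mean in the highest minus the lowest GC quartile for each of the 15 samples, from -0.31 to 0.05.

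*GRIK2* and *SEMA3A* headed the protein-coding genes with the largest increase. *GRIK2*, a kainate-type glutamate receptor subunit, had 31.2, 40.2 and 38 normalized counts in wild-type cells and 332, 480.2 and 603 in *AGO1* knockout cells, a log2 fold change of 3.69 (SE 0.29, adjusted p = 1.7e-06). It had log2 fold changes of -0.63, 1.14 and 2.09 in the *AGO2*, *AGO1/2* and *AGO1/2/3* lines against the same wild-type samples. The lowest *AGO1* knockout sample lay far above the highest wild-type sample.

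*SEMA3A*, a secreted semaphorin that repels growing axons and acts on endothelial cells, lies on chromosome 7 from 83955777 to 84492724 on the minus strand. It had 1109, 1021 and 1132 normalized counts in wild-type cells and 6432, 8822 and 8923 in *AGO1* knockout cells. The log2 fold change was 2.89 (SE 0.15, adjusted p = 3.61e-08). In the other lines it had the opposite sign, with log2 fold changes of -3.47, -1.28 and -1.17 in the *AGO2*, *AGO1/2* and *AGO1/2/3* lines against the same wild-type samples.

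*NRP1*, the co-receptor for *SEMA3A*, had 264, 1164 and 242 normalized counts in wild-type cells and 1618, 2998 and 2765 in *AGO1* knockout cells. The groups did not overlap, although WT 2 held over 4 times the level of the other wild-type samples. *NRP1* rose by 2.14 (SE 0.46, adjusted p = 0.00945), and the adjusted p was 0.101 when only the 6 samples were fitted. Without WT 2 and AGO1_KO 3 the log2 fold change was 3.20 (adjusted p = 1.61e-05).

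A pair of head-to-head collagen genes on the X chromosome rose together. *COL4A5* and *COL4A6* encode chains of the type IV collagen network of basement membranes, and their annotated starts on opposite strands lie within 1 kb of each other (*COL4A6* from 108155607 to 108439497 on the minus strand, *COL4A5* from 108439838 to 108697545 on the plus strand). *COL4A6* had 103, 92.1 and 110.1 normalized counts in wild-type cells and 407, 582 and 635 in *AGO1* knockout cells, a log2 fold change of 2.41 (SE 0.20, adjusted p = 2.25e-06). *COL4A5* had 1093, 1270.0 and 1064 in wild-type cells and 3697, 4219 and 5797 in knockout cells, a log2 fold change of 2.0 (SE 0.18, adjusted p = 7.61e-06). Neither gene overlapped between the groups. In *AGO2* knockout cells the log2 fold changes were -0.81 for *COL4A6* and -0.73 for *COL4A5*, in *AGO1/2* knockout cells -1.50 and -0.47, and in *AGO1/2/3* knockout cells -0.62 and 0.49.

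*SAMD3* and *TMEM200A* are another head-to-head pair, on chromosome 6, with *SAMD3* from 130144315 to 130365425 on the minus strand and *TMEM200A* from 130366017 to 130443067 on the plus strand. *SAMD3* had 178, 168 and 176 normalized counts in wild-type cells and 927, 811 and 884 in *AGO1* knockout cells, a log2 fold change of 2.33 (adjusted p = 5.46e-07). *TMEM200A*, which encodes a transmembrane protein, had 922, 1079.5 and 1045 in wild-type cells and 4226, 4089 and 4055 in knockout cells, a log2 fold change of 2.02 (SE 0.12, adjusted p = 9.67e-08). The replicates of both genes lay close together within each line. Both had negative log2 fold changes in the 3 other knockout lines, with those of *TMEM200A* at -1.25, -4.10 and -1.21 in the *AGO2*, *AGO1/2* and *AGO1/2/3* lines.

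*ANXA10*, an annexin of gastric and intestinal epithelium, had 315, 383 and 409 normalized counts in wild-type cells and 1550.4, 2075 and 1453 in *AGO1* knockout cells. It rose by 2.20 (SE 0.17, adjusted p = 1.58e-06), while every sample of the 3 other knockout lines had 3 counts of it or fewer. *DPEP1*, a membrane dipeptidase, rose by 2.17 (adjusted p = 0.001). *SNTG2*, a syntrophin, rose by 2.26 (adjusted p = 0.000144). *SERF1A* rose by 2.12 (adjusted p = 0.04), with AGO1_KO 2 at 154 normalized counts and the other knockout samples at 65.1 and 32.1, and it shares reads with its near-identical copy *SERF1B*, so that its count is uncertain.

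*EHF* had the smallest adjusted p of all called genes. It encodes an ETS transcription factor of epithelial cells and lies on chromosome 11 from 34621093 to 34663288 on the plus strand. It had 2060.2, 1765 and 1941 normalized counts in wild-type cells and 89.9, 83.7 and 85.2 in *AGO1* knockout cells, a log2 fold change of -4.47 (SE 0.14, adjusted p = 5.89e-11). All 3 knockout samples lay close together, at 4.49% of the wild-type mean. The log2 fold changes of *EHF* in the *AGO2*, *AGO1/2* and *AGO1/2/3* lines were 0.08, -1.48 and -0.76.

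*SATB1*, a chromatin organizer of developing T cells that many carcinomas express, had 241, 322 and 298 normalized counts in wild-type cells and 10.3, 15.8 and 23.2 in *AGO1* knockout cells, a log2 fold change of -4.12 (SE 0.31, adjusted p = 1.12e-06). The groups did not overlap. Its log2 fold changes in the *AGO2*, *AGO1/2* and *AGO1/2/3* lines were -1.48, -3.58 and -1.87 against the same wild-type samples.

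Genes of metabolism stood among the largest decreases. *PRKAA2*, the alpha 2 catalytic subunit of AMP-activated kinase, had 374, 440.3 and 353 normalized counts in wild-type cells and 29.9, 17 and 28.8 in *AGO1* knockout cells, a log2 fold change of -3.93 (SE 0.20, adjusted p = 2.2e-08). Beside it stood -3.66, 0.01 and 3.42 in the *AGO2*, *AGO1/2* and *AGO1/2/3* lines against the same wild-type samples. *PRPS1*, which makes the ribose donor for nucleotide synthesis, had 1682, 981 and 1610.4 in wild-type cells and 183, 239 and 163 in knockout cells, a log2 fold change of -2.87 (SE 0.20, adjusted p = 5.46e-07), where the 3 other lines gave 0.72, 0.60 and 0.97. *SLC15A1*, an intestinal peptide transporter, fell by 3.13 (adjusted p = 6.75e-06).

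Secreted proteins and a calcium channel completed the list, and WT 2 carried part of it. *LCN2*, an iron-siderophore binding protein of inflamed epithelium, had 47.8, 593 and 27.0 normalized counts in wild-type cells and 3.10, 2.43 and 6.64 in *AGO1* knockout cells, a log2 fold change of -5.72 (SE 1.12, adjusted p = 0.00499), which was -3.68 without WT 2 and AGO1_KO 3 (adjusted p = 0.00168). *TRPV6*, an epithelial calcium channel, had 60.3, 474 and 45 in wild-type cells and 7.23, 18.2 and 25.4 in knockout cells, a log2 fold change of -3.51 (adjusted p = 0.0108), which was -2.07 without the pair (adjusted p = 0.0108). Both were lower in every knockout sample than in the lowest wild-type sample, and neither passed when only the 6 samples were fitted (adjusted p = 0.0784 for *LCN2* and 0.11 for *TRPV6*). *IGFBP3*, which binds insulin-like growth factors, fell by 4.31 (adjusted p = 0.00107), the cytokine *IL32* by 3.50 (adjusted p = 6.75e-06), the serine protease inhibitor *SERPINA5* by 3.48 (adjusted p = 0.000704) and *STUM* by 3.10 (adjusted p = 0.000187). Against the same wild-type samples, the *AGO2*, *AGO1/2* and *AGO1/2/3* lines had log2 fold changes of -3.82, -4.27 and -7.59 for *LCN2*. The values were -2.45, -3.88 and -4.8 for *TRPV6*, -1.90, -2.54 and -1.75 for *IGFBP3*, and -3.37, -3.23 and -2.9 for *IL32*. For *SERPINA5* they were -1.19, -1.29 and 0.34, and for *STUM* -0.305, -0.68 and -1.10.

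**Figure D3:**
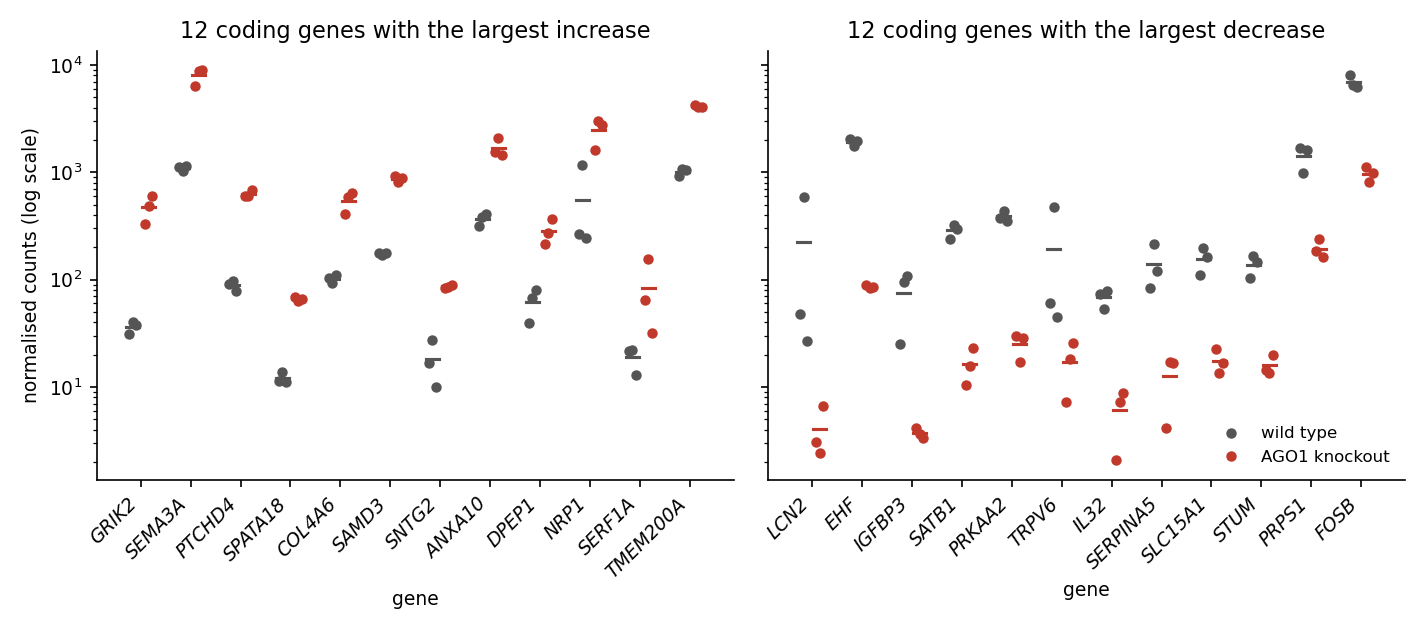
Normalized counts (log scale) in each wild-type sample (grey) and each *AGO1* knockout sample (red) for the 12 protein-coding genes with the largest called increase (left) and the 12 with the largest called decrease (right), with a bar at the mean. The groups do not overlap for any gene shown, which was a condition of the choice; WT 2 stands above the other wild-type samples for *NRP1*, *LCN2* and *TRPV6*.

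Targets of the transcription factor p53 rose in *AGO1* knockout cells more often than they fell. This response is set off by DNA damage and other stress, and its targets arrest or kill the cell or repair DNA. Of 39 tested targets 11 were higher (28.21%, beside 3.15% of all genes) and 1 was lower, with a median log2 fold change of 0.32 beside -0.01. With corrected offsets for GC content 11 were higher and 0 lower, without WT 2 and AGO1_KO 3 12 were higher and 1 lower, and when only the 6 samples were fitted 5 were higher.

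*PTCHD4*, a patched-family gene induced by p53, had 91.5, 97.4 and 78.1 normalized counts in wild-type cells and 606, 600.3 and 689 in *AGO1* knockout cells, a log2 fold change of 2.83 (SE 0.22, adjusted p = 1.19e-06). *SPATA18*, a p53 target in mitochondrial quality control, had 11.4, 13.8 and 11 in wild-type cells and 69.2, 63.1 and 65.3 in knockout cells, a log2 fold change of 2.44 (SE 0.27, adjusted p = 0.000362). The replicates of both genes lay close together within each line. Every sample of the 3 other knockout lines had 3 counts of *SPATA18* or fewer, and *PTCHD4* had log2 fold changes of -0.99, 0.17 and 0.83 in the *AGO2*, *AGO1/2* and *AGO1/2/3* lines.

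*RRM2B*, the p53-induced small subunit of ribonucleotide reductase, had 2989.9, 3510.5 and 3185 normalized counts in wild-type cells and 5510.5, 5872 and 5645 in *AGO1* knockout cells, and rose by 0.81 (SE 0.09, adjusted p = 5.83e-05). *FDXR*, a mitochondrial ferredoxin reductase, had 1446, 1285 and 1353 in wild-type cells and 2348, 2365 and 2321 in knockout cells, and rose by 0.78 (SE 0.13, adjusted p = 0.00191). Neither gene overlapped between the groups.

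*MDM2*, the ubiquitin ligase that degrades p53, had 8176, 9036 and 7308 normalized counts in wild-type cells and 14208, 12824 and 11299.5 in knockout cells, and rose by 0.65 (adjusted p = 0.0128). *PLK2*, *DDB2*, *AEN*, *PPM1D*, *BAX* and *FBXO22* rose by 0.87, 0.81, 0.64, 0.56, 0.53 and 0.38. *PLK3*, a stress-induced polo-like kinase, fell by 0.57 (adjusted p = 0.0156). *CDKN1A*, the p21 inhibitor of cyclin-dependent kinases, was not called, with 3838, 6217 and 3553 normalized counts in wild-type cells and 4636, 4357 and 5379 in knockout cells, which overlap.

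*PURPL*, a long non-coding RNA known as a p53-induced repressor of basal p53, is not among the 39 targets and was one of the 4 genes outside the protein-coding class with the largest increase. It lies on chromosome 5 from 27217714 to 27497871 on the plus strand. It had 61.4, 80.4 and 50.0 normalized counts in wild-type cells and 2317, 2145 and 2668 in *AGO1* knockout cells, a log2 fold change of 5.22 (SE 0.28, adjusted p = 3.61e-08). In the *AGO2*, *AGO1/2* and *AGO1/2/3* lines its log2 fold changes were -2.63, 1.72 and 0.39 against the same wild-type samples.

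Genes of epithelial cell junctions and polarity were mostly on the lower side. These genes encode the cadherins, claudins and polarity proteins that seal neighbouring epithelial cells, with the transcription and splicing factors that keep them on. Of 42 tested 15 were lower (35.71%, beside 5.47% of all genes) and 1 was higher, with a median log2 fold change of -0.30. With corrected offsets 14 were lower, without WT 2 and AGO1_KO 3 16 were lower, and in the fit of 6 samples 5 were lower.

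*GRHL2*, a transcription factor that maintains junction genes, had 1216, 908 and 1039 normalized counts in wild-type cells and 483, 451 and 515 in *AGO1* knockout cells, a log2 fold change of -1.13 (SE 0.15, adjusted p = 0.000263). *CDH1*, which encodes E-cadherin, had 2804, 4452 and 2476 in wild-type cells and 1048, 1334 and 1991 in knockout cells, a log2 fold change of -1.15 (SE 0.23, adjusted p = 0.00669, and 0.0747 in the fit of 6 samples). WT 2 was the highest wild-type and AGO1_KO 3 the highest knockout sample for *CDH1*, and without both the adjusted p was 0.0014.

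The claudin gene *CLDN4* fell by 1.06, the desmosome-linked plakin gene *PPL* by 1.05, the transcription factor gene *OVOL1* by 1.05, the epithelial splicing factor gene *ESRP1* by 0.89 and the polarity gene *PARD3* by 0.66. *EPCAM*, which encodes an epithelial adhesion molecule, had 6818, 6994 and 7376 normalized counts in wild-type cells and 5273, 5784 and 5742 in knockout cells, and fell by 0.34 (adjusted p = 0.043, and 0.0865 without WT 2 and AGO1_KO 3). *CLDN2*, a pore-forming claudin, was the member called higher, with a log2 fold change of 1.27 (adjusted p = 0.0274, and 0.171 without WT 2 and AGO1_KO 3). The members *CGN*, *CDH3*, *LLGL2*, *PARD6B* and *CLDN12* fell by 0.40 to 0.67.

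Mesenchymal genes were called in both directions. Of the 20 tested 14 had a negative log2 fold change, with a median of -0.28 beside -0.01 over all genes tested. Of 20 tested 4 were higher (20%) and 3 lower (15%), beside 3.15% and 5.47% of all genes. Without WT 2 and AGO1_KO 3 2 were higher, where *FN1* and *ACTA2* had adjusted p of 0.0506 and 0.0505, and with corrected offsets 3 were. *ZEB1*, a repressor of E-cadherin that miR-200 miRNAs target, had 262, 319 and 300.3 normalized counts in wild-type cells and 444, 526 and 514 in *AGO1* knockout cells, and rose by 0.75 (SE 0.14, adjusted p = 0.0041) with no overlap. *VIM* and *FN1*, which encode vimentin and fibronectin, rose by 0.94 and 0.72, and *ACTA2* by 0.57. *S100A4*, a calcium-binding protein of motile cells, had 3427, 1912 and 3690.3 in wild-type cells and 489.6, 487 and 686 in knockout cells, and fell by 2.44 (SE 0.25, adjusted p = 3.18e-05). *TWIST1*, a mesenchymal transcription factor gene, fell by 1.63, and *AXL*, a receptor tyrosine kinase gene, by 1.08.

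Of the intestinal epithelium genes 22 were tested, 3 were higher (13.64%, beside 3.15% of all genes) and 2 lower (9.09%, beside 5.47%). With corrected offsets 2 and 2 were. *EHF* is described above, the transcription factor genes *FOXA1* and *HNF4G* rose by 0.90 and 0.51, and *MUC1*, a membrane mucin gene, fell by 1.05. Of 11 keratin genes tested 3 were lower, *KRT15* by 1.39, *KRT13* by 1.79 and *KRT7* by 2.64. *KRT7* overlapped between the groups, with 168, 732 and 69.1 normalized counts in wild-type cells and 18.6, 44.9 and 91.9 in knockout cells, and it fell by 1.92 without WT 2 and AGO1_KO 3.

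The 22 genes with *AGO2* clusters that the study examined one by one included 6 that were lower (27.27%) and 0 that were higher by edgeR, as by DESeq2. Of all genes tested 5.47% were lower and 3.15% higher, and 0 higher of 22 is not set apart from the latter share. At an unadjusted p under 0.05, 1 of the 22 was higher. The study chose these 22 genes for clusters of *AGO2* binding in their 3′-UTRs. *MAL2*, a membrane-sorting protein of polarized epithelia, had 6689, 6745 and 5372 normalized counts in wild-type cells and 1969.7, 2537 and 2013 in *AGO1* knockout cells, a log2 fold change of -1.53 (SE 0.14, adjusted p = 8.77e-06). The groups were well apart, and its log2 fold changes of -0.01, -6.41 and -8.84 in the *AGO2*, *AGO1/2* and *AGO1/2/3* lines stand beside this. *S100A14*, the mucin-type glycosyltransferase gene *GALNT3*, the hyaluronidase gene *CEMIP*, the serine protease gene *PRSS8* and *TMEM184A* fell by 1.94, 1.46, 1.45, 1.31 and 0.94.

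Genes of ERK signalling, which carries growth factor signals from receptors through MAP kinases to immediate-early genes, were mostly on the lower side. Of 52 tested 15 were lower (28.85%, beside 5.47% of all genes) and 1 was higher (1.92%, beside 3.15%), with a median log2 fold change of -0.38. Corrected offsets gave 12 lower genes, the fit without WT 2 and AGO1_KO 3 gave 17 and the fit of 6 samples gave 8.

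Among the ligands and receptors, *ERBB4* had 15.6, 15.9 and 10.0 normalized counts in wild-type cells and 0, 0 and 2.21 in *AGO1* knockout cells, which is at least 4.13-fold lower (adjusted p = 0.00146). *EGF*, the founding ligand of the EGF receptor, had 18.7, 9.53 and 15.0 in wild-type cells and 0, 1.21 and 3.32 in knockout cells, at least 4.3-fold lower (adjusted p = 0.00433). The median of the list is the same with both genes at their bounds. *EREG*, a ligand of the EGF receptor, had 31636, 39835 and 24713 in wild-type cells and 21973, 23340.3 and 19876 in knockout cells, and fell by 0.56 (adjusted p = 0.0242, and 0.192 without WT 2 and AGO1_KO 3). *FGFR1* and *ERBB3* fell by 0.48 and 0.42.

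Immediate-early genes were among the members that fell. *FOSB*, an AP-1 subunit gene, had 8005, 6512 and 6190.5 normalized counts in wild-type cells and 1121, 809 and 990.5 in *AGO1* knockout cells, a log2 fold change of -2.83 (SE 0.64, adjusted p = 0.0124). *FOS* had 6052, 3608 and 6102 in wild-type cells and 1334, 794 and 748 in knockout cells, a log2 fold change of -2.45 (SE 0.65, adjusted p = 0.0285, and 0.0637 without WT 2 and AGO1_KO 3). Neither overlapped between the groups, and both were also called in the fit of 6 samples, where *FOSB* had an adjusted p of 0.000227 and *FOS* of 0.00542. *FOSB* had log2 fold changes of -1.86, -3.02 and -3.54 in the *AGO2*, *AGO1/2* and *AGO1/2/3* lines against the same wild-type samples.

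*DUSP1*, a phosphatase that switches MAP kinases off, had 1304, 1249 and 1582 normalized counts in wild-type cells and 551, 457 and 485 in knockout cells, and fell by 1.47 (adjusted p = 0.00276). *JUN*, the partner of *FOS* in AP-1, fell by 1.01, *EGR2* by 1.84, *DUSP5* and *DUSP2* by 1.33 and 1.09, *PHLDA2* by 0.73, *IER3* by 0.72 and *IER2* by 0.61. *EGR1* was not called, with a log2 fold change of -1.08 (adjusted p = 0.179) and groups that did not overlap. *ETV1*, an ETS factor of the ERK pathway, was the member called higher, with 1674, 923 and 1698 normalized counts in the wild-type samples, 3894, 4210.4 and 4489 in knockout cells and a log2 fold change of 1.55 (SE 0.24, adjusted p = 0.00111).

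Of the genes for extracellular matrix 48 were tested, 12 were lower (25%) and 4 higher (8.33%), with a median log2 fold change of -0.39. The shares of all genes were 5.47% and 3.15%. The higher members were the basement membrane genes *COL4A6* and *COL4A5* described above, the laminin chain gene *LAMA4* with a log2 fold change of 1.29 (adjusted p = 0.000308) and the fibrillar collagen gene *COL3A1*. *COL3A1* had 3.12, 1.06 and 1.0 normalized counts in wild-type cells and 17.6, 12.1 and 29.9 in *AGO1* knockout cells, at least 6.41-fold higher. The lower members included other collagens, with *COL9A3* at 528, 378 and 629.6 normalized counts in wild-type cells and 184, 166 and 212 in knockout cells and a log2 fold change of -1.45 (SE 0.18, adjusted p = 0.000205). *COL16A1*, *COL7A1*, *COL9A2*, *COL1A1* and *COL27A1* fell by 1.95, 1.70, 1.48, 0.96 and 0.86, and the laminin gene *LAMA5* by 1.12. Corrected offsets gave 4 higher and 11 lower members, the fit of 6 samples 4 and 8, and the fit without WT 2 and AGO1_KO 3 gave 4 and 14.

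Targets and members of the Hippo pathway, which restrains the co-activators YAP and TAZ, gave 10 lower genes (25%) and 0 higher among 40 by edgeR (1 by DESeq2, and 3 at an unadjusted p under 0.05), with a median log2 fold change of -0.18. The shares of all genes were 5.47% lower and 3.15% higher. The matricellular genes *CCN2* and *CCN1*, the best known YAP targets, led the lower members. *CCN1* had 4623, 2163 and 2276 normalized counts in wild-type cells and 1076, 679 and 815 in *AGO1* knockout cells, and fell by 1.82 (SE 0.27, adjusted p = 0.000728). *CCN2* had 516, 193 and 168 in wild-type cells and 59.9, 61.9 and 63.1 in knockout cells, and fell by 2.24 (SE 0.41, adjusted p = 0.00304). In both genes WT 1 was the highest sample and the groups did not overlap. For *YAP1* itself the log2 fold change was 0.06 (adjusted p = 0.744). The fit of 6 samples called 3 of the list lower, the fit with corrected offsets called 7 and the fit without WT 2 and AGO1_KO 3 called 8.

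Guidance genes other than *SEMA3A* and *NRP1* went both ways, also within a class. Of 51 tested ephrins, Eph receptors, semaphorins, plexins and neuropilins 4 were higher (7.84%) and 11 lower (21.57%), with a median log2 fold change of -0.33. The shares of all genes were 3.15% and 5.47%. The higher members were the class 3 semaphorins *SEMA3A*, *SEMA3C* (1.25) and *SEMA3E* (1.05, adjusted p = 0.223 without WT 2 and AGO1_KO 3), and *NRP1*. The lower members included the class 3 semaphorin *SEMA3B* (-1.81), the second neuropilin *NRP2* (-1.27), the plexins *PLXNA3* (-1.09) and *PLXNB1* (-0.92), and the ephrin receptor *EPHA2* (-0.84). *EPHA2* had 5689.7, 6295 and 4298 normalized counts in wild-type cells and 2491, 2836 and 3756 in *AGO1* knockout cells, which do not overlap (adjusted p = 0.0141, and 0.0684 with corrected offsets for GC content). Corrected offsets gave 4 higher and 7 lower members, the fit of 6 samples gave 2 and 4, and the fit without WT 2 and AGO1_KO 3 gave 3 and 13.

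Glycolysis and hypoxia genes were mostly on the lower side. Of 44 tested 42 had a negative log2 fold change, the median was -0.54, and 5 were lower (11.36%, beside 5.47% of all genes), while DESeq2 called 9 lower. *SLC2A3*, a high-affinity glucose transporter, had 306, 462 and 933 normalized counts in wild-type cells and 105, 83.7 and 127 in *AGO1* knockout cells, and fell by 2.42 (SE 0.35, adjusted p = 0.000693). *ENO2*, the neuronal enolase, fell by 1.89, with WT 3 at 3817 normalized counts and the other wild-type samples at 1232 and 974. *P4HA2*, *INSIG2* and *SLC16A3* fell by 0.72, 0.62 and 0.55. *P4HA2* overlapped between the groups, and *SLC16A3* had an adjusted p of 0.218 with corrected offsets. WT 3 was the highest wild-type sample for *SLC2A3*, *ENO2*, *P4HA2* and *SLC16A3*. The fit without WT 2 and AGO1_KO 3 keeps that sample. Without WT 2 and AGO1_KO 3 10 members were lower, with corrected offsets 4 were, and in the fit of 6 samples 1 was.

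Inflammatory and death genes were called in both directions. Of 27 NF-kB targets 5 were lower (18.52%, beside 5.47% of all genes), among them *IL32* and the cytokine gene *LIF*, which fell by 1.53 (adjusted p = 0.00058), and 2 were higher, *ICAM1* and *NFKB1*. Neither of these was called without WT 2 and AGO1_KO 3 (adjusted p = 0.0677 and 0.0528), where 3 members were lower, and corrected offsets gave 1 higher and 3 lower. Of 36 apoptosis regulators 4 were lower (11.11%), led by *CASP4*, the inflammatory caspase that senses lipopolysaccharide, which fell by 1.34 (adjusted p = 0.000289), and the anti-apoptotic genes *BCL2L2* and *BCL2L1*, which fell by 0.71 and 0.77, and 1 was higher, the p53 target *BAX*. Of 49 interferon and RNA-sensing genes 2 were higher and 1 lower, and of 17 MHC class I genes 0 were called by edgeR or DESeq2, with 3 lower at an unadjusted p under 0.05.

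Among transporters and adhesion receptors, *ABCB1*, the multidrug efflux pump, had 127, 101 and 73.1 normalized counts in wild-type cells and 215, 211 and 208 in *AGO1* knockout cells, and rose by 1.08 (SE 0.18, adjusted p = 0.00213), while 5 of the 21 tested transporters (23.81%) fell and 3 with corrected offsets, among them the porphyrin transporter gene *ABCB6* by 1.13 and the cholesterol exporter gene *ABCA1* by 1.33. Of 33 integrin and adhesion genes 4 were lower (12.12%), with the integrin gene *ITGB8* at -1.42, and 1 was higher, the nectin gene *NECTIN3* at 1.08. The shares of all genes were 5.47% lower and 3.15% higher. Of 45 TGF-beta and BMP genes *LTBP3*, a latent TGF-beta binding protein gene, fell by 1.12 (adjusted p = 9.63e-05), and *BMP2* rose by 1.75 (adjusted p = 0.0291).

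The housekeeping and cell cycle lists held few calls, beside 3.15% of all genes called higher and 5.47% lower. Of 45 DNA replication genes 0 were called by edgeR or DESeq2, with 2 higher at an unadjusted p under 0.05, although 41 had a positive log2 fold change, with a median of 0.28, and the samples WT 2 and AGO1_KO 3 were the low samples of this list in their lines. Of 41 replication-dependent histone genes 0 were called by edgeR and 1 by DESeq2, 4 were higher at an unadjusted p under 0.05, with a median of 0.41, and of 59 mitosis genes 1 was lower, *CDC25B*, which fell by 0.53. *CDC25B* had an adjusted p of 0.088 with corrected offsets and 0.0532 in the fit of 6 samples. Of 82 cytosolic ribosomal protein genes 80 had a positive log2 fold change with a median of 0.21, and 4 were higher (10 with corrected offsets), among them *RPL8*, *RPL38* and *FAU*, and none of the 4 passed in the fit of 6 samples or without WT 2 and AGO1_KO 3.

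Mitochondrially encoded mRNAs were among the most abundant higher transcripts. *MT-ND1*, a complex I subunit, had 138519, 136906 and 133330.0 normalized counts in wild-type cells and 199298, 197614 and 202636 in *AGO1* knockout cells, and rose by 0.55 (SE 0.10, adjusted p = 0.00319, and 0.0567 in the fit of 6 samples). The replicates were close together and did not overlap. *MT-CO3*, *MT-ATP6*, *MT-ATP8* and *MT-ND2* rose by 0.49, 0.48, 0.40 and 0.39, and of these only *MT-ATP6* was called without WT 2 and AGO1_KO 3 and none in the fit of 6 samples. Of 90 tested genes of oxidative phosphorylation 6 were higher (6.67%) and 1 was lower, the nuclear gene *NDUFC2*, while 3 were higher without WT 2 and AGO1_KO 3, 0 in the fit of 6 samples and 5 with corrected offsets.

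**Figure D4:**
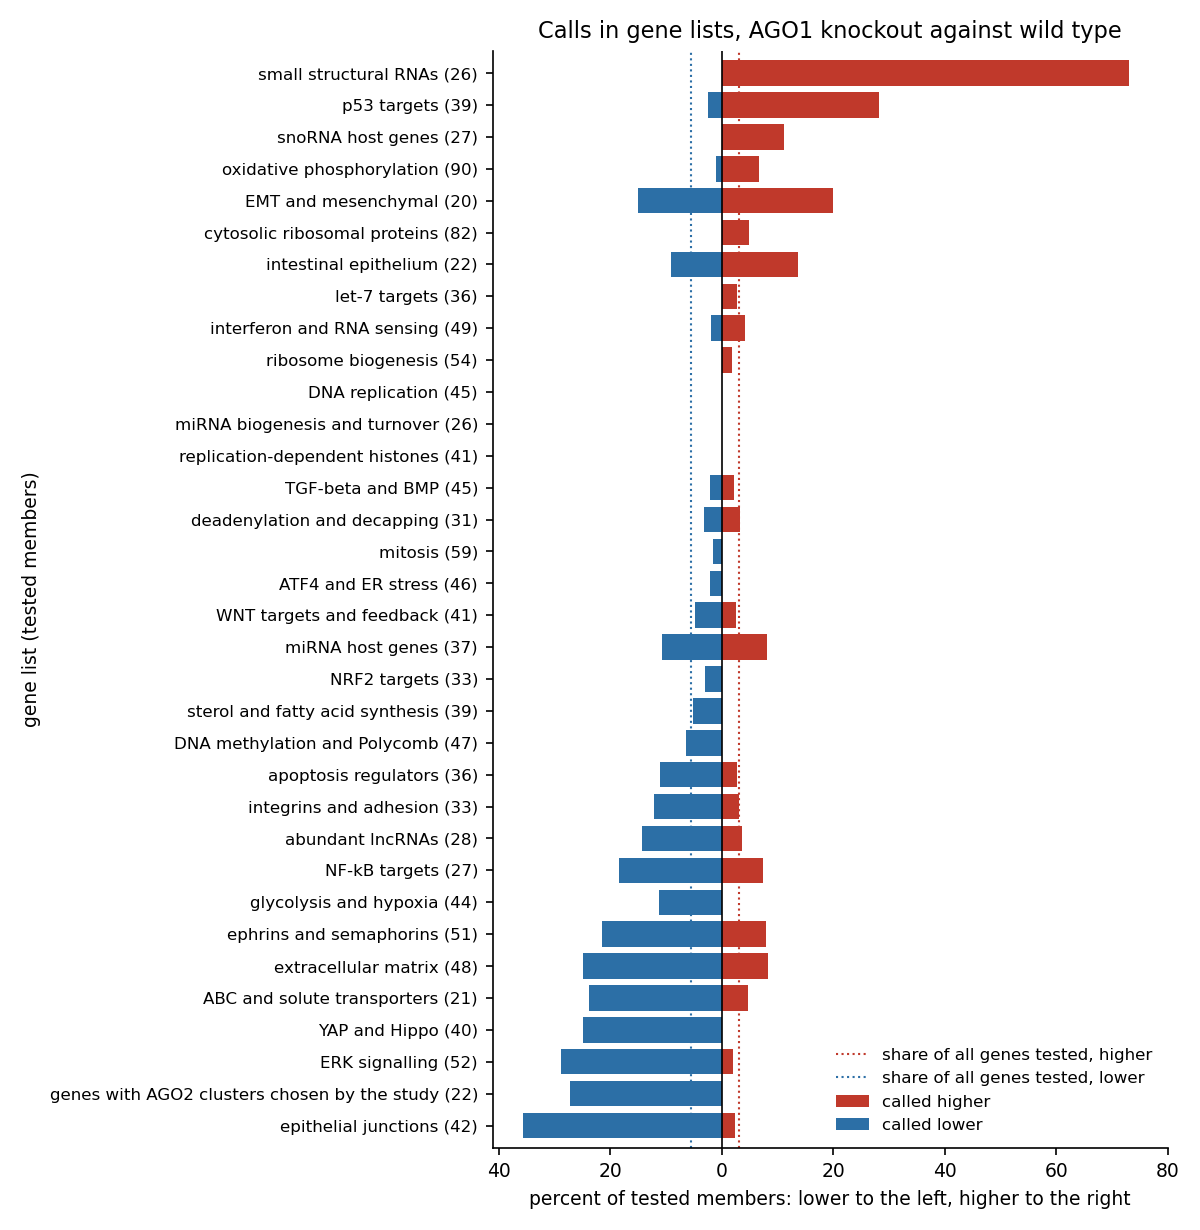
Percent of tested members called higher (red, right) and lower (blue, left) in *AGO1* knockout cells for each gene list with at least 20 tested members, with the number tested in brackets; dotted lines mark the share of all genes tested, 3.15% higher and 5.47% lower. Small structural RNAs (73.08%) and p53 targets (28.21%) have the largest higher shares, and epithelial junction genes (35.71%) the largest lower share.

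Small structural RNAs gave the highest share of higher calls. They guide splicing and the modification and cleavage of ribosomal RNA. Of 26 tested 19 were higher (73.08%, beside 3.15% of all genes) and 0 lower, and all 26 had a positive log2 fold change, with a median of 1.14. The fit of 6 samples called 14 higher, the fit with corrected offsets 21 and the fit without WT 2 and AGO1_KO 3 called 17. The labels and the paper name different RNA extractions (Trizol and an RNeasy kit), and how fully the extraction and the library recovered RNAs this short was not tested.

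SNORD3A, the U3 snoRNA that guides cleavage of the ribosomal RNA precursor, had 53376, 67687 and 67663 normalized counts in wild-type cells and 349446, 436756 and 630495 in *AGO1* knockout cells, a log2 fold change of 2.91 (SE 0.19, adjusted p = 2.2e-07). Near-identical U3 copies share its reads, so that the split among them is uncertain. Beside it stood log2 fold changes of 2.49, 2.39 and 1.54 in the *AGO2*, *AGO1/2* and *AGO1/2/3* lines against the same wild-type samples.

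RNU12, the U12 RNA of the minor spliceosome, had 27.0, 61.4 and 47.0 normalized counts in wild-type cells and 1437, 2068 and 2449 in *AGO1* knockout cells, a log2 fold change of 5.46 (SE 0.30, adjusted p = 3.61e-08). RNU6ATAC, another RNA of the minor spliceosome, had 30.2, 22.2 and 56.0 in wild-type cells and 368, 430.5 and 417 in knockout cells, a log2 fold change of 3.47 (adjusted p = 9.05e-07). In the *AGO2*, *AGO1/2* and *AGO1/2/3* lines the log2 fold changes against the same wild-type samples were 4.34, 5.36 and 3.61 for RNU12 and 1.90, 3.58 and 2.45 for RNU6ATAC. RNU2-2P, a U2 gene, rose by 3.22 (with 2.20, 2.97 and 3.22 in these lines), and RNU5B-1, RNU1-1 and RNU4-1 by 2.48, 2.14 and 2.0. Like U3, the major spliceosomal RNAs come from repeated copies that share reads.

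Not every abundant small RNA rose. RN7SL1, the RNA of the signal recognition particle, had 347197, 409059 and 447183 normalized counts in wild-type cells and 689176, 808040.5 and 902569.5 in *AGO1* knockout cells, and rose by 1.0 (adjusted p = 0.000506). RN7SK, which holds the elongation factor P-TEFb inactive, had 369170.2, 482711 and 435795 in wild-type cells and 432886, 503369 and 589093 in knockout cells, which overlap, with a log2 fold change of 0.24 (adjusted p = 0.353).

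Small nucleolar RNAs moved as families. Of 194 tested snoRNAs 73 were higher (37.63%) and 1 lower, and of 107 tested snRNAs 20 were higher (18.69%) and 1 lower. The shares of all genes were 3.15% higher and 5.47% lower. Among gene families named by a shared symbol stem, the largest higher share was that of the H/ACA snoRNAs (SNORA, which guide pseudouridylation), with 46 of 89 higher and a median log2 fold change of 0.88. The Cajal body RNAs (SCARNA) had 8 higher of 18, and the C/D snoRNAs (SNORD, which guide methylation) had 23 higher of 81. In the fit of 6 samples 22 SNORA, 3 SCARNA and 12 SNORD genes were higher, without WT 2 and AGO1_KO 3 32, 6 and 13 were, and with corrected offsets 43, 9 and 21 were. SNORA53 had 15.6, 15.9 and 27.0 normalized counts in wild-type cells and 529, 574 and 683 in *AGO1* knockout cells, a log2 fold change of 4.92 (adjusted p = 2.2e-08), beside 3.91, 4.51 and 4.71 in the *AGO2*, *AGO1/2* and *AGO1/2/3* lines. SNORA64 had 0, 0 and 3.0 in wild-type cells and 63.0, 129 and 160.5 in knockout cells, at least 37.9-fold higher.

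Summed by class, SNORD3A took 1608 to 2039 CPM in wild-type cells and 10527 to 18994 CPM in *AGO1* knockout cells. The other snoRNAs together took 928 to 1325 CPM in wild-type cells and 1602 to 2655 CPM in knockout cells. H/ACA snoRNAs took 639 to 994 CPM in wild-type cells and 1040 to 1812 CPM in *AGO1* knockout cells, beside 441 to 562 CPM in the *AGO2* line, 908 to 1310 CPM in the *AGO1/2* line and 758 to 952 CPM in the *AGO1/2/3* line. The wild-type and *AGO1* knockout samples did not overlap in any of these sums. The snoRNA host genes, whose introns hold many of these RNAs, gave 3 higher genes of 27, *SNHG25*, *SNHG19* and *SNHG4*, which rose by 0.87, 0.78 and 0.52 (4 higher with corrected offsets and 2 without WT 2 and AGO1_KO 3).

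**Figure D5:**
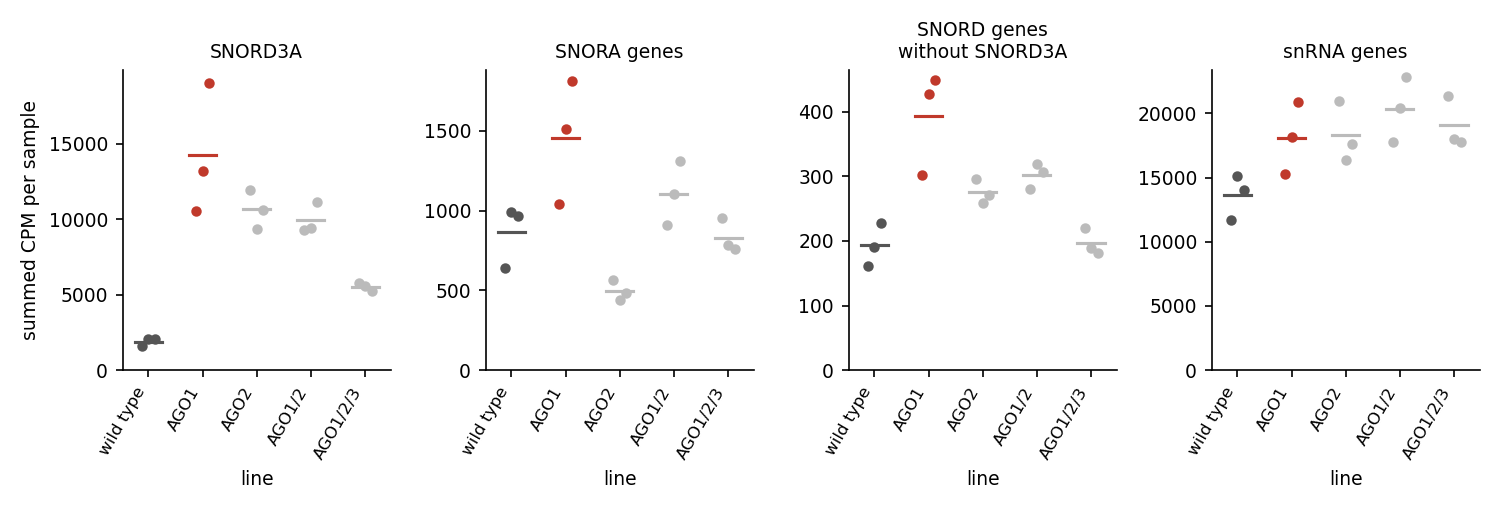
Summed CPM per sample of SNORD3A, of SNORA genes, of SNORD genes without SNORD3A and of snRNA genes in the 5 lines, with a bar at the mean of 3 samples; wild type is dark grey and the *AGO1* knockout red. SNORD3A rises from 1608 to 2039 CPM in wild-type cells to 10527 to 18994 CPM in *AGO1* knockout cells.

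Among long non-coding RNAs 151 of 4810 tested were higher and 130 lower, shares of 3.14% and 2.7% beside 3.15% and 5.47% of all genes. *NEAT1*, the scaffold of nuclear paraspeckles, had 37547, 50783 and 35584 normalized counts in wild-type cells and 9114, 9575 and 21259.9 in *AGO1* knockout cells, and fell by 1.63 (SE 0.31, adjusted p = 0.00398). AGO1_KO 3 was the highest of the knockout samples and still below the lowest wild-type sample. The groups overlapped for its neighbour *MALAT1*, with a log2 fold change of -0.23 (adjusted p = 0.691). *UCA1*, a carcinoma-associated RNA, had 2972, 2989.8 and 4527 in wild-type cells and 585, 600.3 and 867 in knockout cells, and fell by 2.35 (SE 0.23, adjusted p = 1.97e-05), where the log2 fold changes in the *AGO2*, *AGO1/2* and *AGO1/2/3* lines were -0.30, -0.48 and 0.31. *TUG1* rose by 0.42.

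The kallikrein proteases had the largest lower share of any family by symbol stem. Of 10 tested KLK genes of the cluster on chromosome 19 6 were lower (60%, beside 5.47% of all genes) and 0 higher, with a median log2 fold change of -1.27. The fit of 6 samples and the fit without WT 2 and AGO1_KO 3 each called 4 of them lower, and the fit with corrected offsets 5. *KLK6* had 701, 887 and 471 normalized counts in wild-type cells and 107, 129 and 105 in *AGO1* knockout cells, and fell by 2.59 (SE 0.19, adjusted p = 9.05e-07). *KLK10* had 352, 411 and 296 in wild-type cells and 43.4, 74.0 and 68.6 in knockout cells, and fell by 2.51 (SE 0.18, adjusted p = 8.04e-07). *KLK7* and *KLK1* fell by 1.45 and 1.79, *KLK8* by 0.63, and *KLK5* was at least 3.11-fold lower. The log2 fold changes of *KLK7* in the *AGO2*, *AGO1/2* and *AGO1/2/3* lines were -0.89, 1.0 and -2.13.

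Other families followed with smaller numbers. Of 13 PRSS genes, which encode serine proteases, 6 were lower (46.15%), and of 9 SULT genes, which encode sulfotransferases, 3 were lower (33.33%). The shares of all genes were 5.47% lower and 3.15% higher. Of 13 PKD genes 7 were lower, but these were *PKD1* and 6 of its near-identical pseudogenes, which share reads, so that they are uncertain and may stand for 1 transcript, and 3 were lower with corrected offsets. Of 10 FOXD genes 3 were higher, *FOXD4L5*, *FOXD4L4* and *FOXD2-AS1*, by 1.12, 1.61 and 0.70, where *FOXD4L5* and *FOXD4L4* are near-identical copies whose counts are uncertain. Of 9 genes with the stem GAS 3 were lower and 2 higher, and *GAS8*, *GAS5-AS1* and *GAS6-AS1* fell by 0.36, 1.24 and 0.99, with 1 lower when offsets were corrected.

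Calls were also counted by position. Within 1 Mb of *AGO1* 32 genes were tested, of which *TMEM35B* was higher (3.12%, beside 3.15% of all genes) and *SH3D21* lower (3.12%, beside 5.47%), and within 5 Mb 165 were tested, of which 1 was higher (0.61%) and 12 lower (7.27%). Among windows of 10 Mb, chromosome 6 from 120 to 130 Mb and chromosome 4 from 160 to 170 Mb had the largest higher shares, with 8 of 36 (22.22%) and 7 of 28 genes (25%). The window on chromosome 4 held *ANXA10*, *SPOCK3* and *PALLD*. *PALLD*, an actin-bundling protein gene, had 6850.3, 4877 and 7509.6 normalized counts in wild-type cells and 17346, 13877 and 13992 in *AGO1* knockout cells, and rose by 1.23 (SE 0.14, adjusted p = 6.49e-05). The largest lower shares were on chromosome 22 from 50 Mb, with 10 of 34 genes, and on chromosome 20 from 60 Mb, with 16 of 77 genes, among them *LAMA5* and *COL9A3*. *SPOCK3* had an adjusted p of 0.0561 in the fit of 6 samples and 0.0777 without WT 2 and AGO1_KO 3. *LAMA5* had 0.0872 in the fit of 6 samples. These windows are the extremes of all those with at least 20 tested genes. They were not counted with corrected offsets, so that position and GC content cannot be told apart here.

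Genes with sites for the miRNA seeds printed above had medians close to that of all genes with a 3′-UTR. A site was the 7-letter complement of a seed on the sense strand of the 3′-UTR, namely CTACCTC for let-7a, ATAAGCT for miR-21, ACTGTGA for miR-27a, TGGTGCT for miR-29a and CTCAGGG for miR-125b, and 14.21%, 11.09%, 20.78%, 20.02% and 19.73% of the 14793 tested genes with a 3′-UTR held them. The median log2 fold changes of the genes with a site were -0.04 for let-7a, -0.005 for miR-21, -0.03 for miR-27a, -0.04 for miR-29a and -0.06 for miR-125b, beside -0.03 over all genes with a 3′-UTR. Of the 7951 genes with any of the 5 sites 2.84% were higher and 6.98% lower, and of the 6842 with none 2.28% were higher and 6.8% lower. The 3′-UTRs with a site were longer, with a median of 2755 bases against 1014.5. In quartiles of 3′-UTR length, from shortest to longest, 9.53%, 8.57%, 7.26% and 5.34% of genes with a site were lower. Of genes with none, 8.1%, 6.67%, 5.73% and 2.72% were lower. The higher shares were 2.21%, 2.72%, 2.43% and 3.37% with a site and 1.91%, 2.6%, 2.2% and 3.27% with none. These differences were not tested.

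By single miRNA, genes with a miR-125b site had the most lower calls (9.12%) and the fewest higher calls (2.06%), and genes with a miR-21 or miR-27a site had 5.12% and 5.07% lower and 3.17% and 3.16% higher. The miR-125b site is rich in G and C, and the miR-21 site is rich in A and T. Among protein-coding genes, lower calls rose from 2.4% in the lowest GC quartile to 15.57% in the highest, and higher calls fell from 3.64% to 0.94%. The shares by miRNA were not counted with corrected offsets, so that site and GC content cannot be told apart here. A match is a run of letters and was not tested for binding.

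Of the classic let-7 targets 36 were tested and 1 was higher (2.78%, beside 3.15% of all genes), with a median log2 fold change of -0.01. DESeq2 called 2 higher and the fit without WT 2 and AGO1_KO 3 called 3. Corrected offsets and the fit of 6 samples each gave 0. *HMGA2*, a chromatin protein gene with many let-7 sites, had 13690.2, 16203 and 14098 normalized counts in wild-type cells and 18743, 18739 and 18976 in *AGO1* knockout cells. The groups did not overlap, and *HMGA2* rose by 0.36 (SE 0.10, adjusted p = 0.0368 and 0.0261 without WT 2 and AGO1_KO 3, but 0.0746 with corrected offsets and 0.179 in the fit of 6 samples). Its log2 fold changes were 0.48, 0.92 and 1.87 in the *AGO2*, *AGO1/2* and *AGO1/2/3* lines against the same wild-type samples.

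Host transcripts of miRNAs went both ways, with 3 of 37 higher (8.11%, beside 3.15% of all genes) and 4 lower (10.81%, beside 5.47%). The fit of 6 samples called 0 higher and 2 lower, and corrected offsets gave 4 and 4. *MIR17HG*, the host of the miR-17-92 cluster, rose by 0.73 (adjusted p = 0.0218), the p53-driven host *MIR34AHG* rose by 0.57 (adjusted p = 0.0198), and *PANK1*, whose intron holds miR-107, rose by 0.77. *MIR23AHG*, the host of miR-23a, miR-27a and miR-24-2, had 405, 167 and 239 normalized counts in wild-type cells and 103, 94.6 and 124 in *AGO1* knockout cells, and fell by 1.33 (adjusted p = 0.00335). *MIR22HG* fell by 1.62, *MIR4435-2HG* by 0.68 and *MIRLET7BHG* by 0.65. Without WT 2 and AGO1_KO 3 the adjusted p of *MIR17HG*, *MIR22HG* and *MIR4435-2HG* were 0.0757, 0.0696 and 0.0932. The mature miRNAs are not measured by these libraries.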

How the data were processed

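Per the labels and the paper's methods, total RNA was depleted of ribosomal RNA and made into stranded, paired-end libraries. The authors removed low-quality reads, used STAR on hg38 and then Salmon, and deposited expected counts (estimated counts per gene), 1 file per sample, not normalized for depth. The submitters' processing notes give STAR 2.5.3a and Salmon 0.11.0, and the methods give other versions. The column names of the *AGO2* knockout files carry the word quasi, and the fit without that line is among the alternatives. Of the values in the 6 samples, 31.27% to 32.11% are not whole numbers. The transcriptome is named Gencode v75 in the sources, a release that was not checked here.

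Counts were rounded to whole numbers. Each file lists 57875 genes by Ensembl identifier, of which 57167 were matched to GENCODE v44 for symbols and positions, and 457 genes of chromosome Y were left out, leaving 57418. No pair of the 15 RNA files, of 105 compared, held identical values. The 5 lines, 15 samples in all, entered 1 model with 1 coefficient per line and a shared estimate of the spread, fitted with edgeR 4.0.16 in R 4.3.3 (filterByExpr, TMM, glmQLFit and glmQLFTest). The *AGO1* knockout was compared with wild type, with Benjamini-Hochberg adjustment over 22823 genes and the paper's threshold of 0.05. The paper's tool, DESeq2 (1.42.0 here), was an alternative. Log2 values of single samples used a prior count of 2. Depth was 27709971 to 32381721 counts per sample in the 6 samples, which bounds the precision of low genes, and a line with 3 counts or fewer in every sample was treated as at the floor. Replicate numbers in the labels do not pair the samples.

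The genes named are the Argonaute and TNRC6 genes, *DICER1*, *TARBP2* and 2 reference genes; the 12 protein-coding and 4 other genes with the largest called change in each direction, among those with a mean of at least 1 CPM, a symbol and groups that do not overlap; the 5 most abundant called protein-coding genes in each direction by CPM per kb; up to 4 called members of each of 39 gene lists in each direction, by adjusted p; and the 5 symbol stems with the largest called share in each direction among 361 stems with at least 8 tested genes. The members and lists were chosen with earlier results of these data known. Other genes named, among them further list members, neighbours of named genes and the genes of 10 Mb windows, were chosen after their values were seen. GC content is that of the longest transcript and was known for 98.86% of tested genes. Mature miRNAs are from RefSeq, and 3′-UTRs from GENCODE v44. The pipeline was tested on simulated data. Summaries used Python 3.11.15, numpy 2.4.6, pandas 2.3.3 and matplotlib 3.10.9. The eCLIP samples were not used here, and some genes and a family that passed the rule are not reported here.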

Additional observations from a re-analysis of the deposited data

How the results depend on the processing

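No named gene that was called, in the comparison reported or in an alternative, changed direction, and *AGO1* was called lower under every alternative run. The count of higher and lower genes, 720 and 1248, came to 750 and 1210 with DESeq2's size factors, 819 and 1397 with DESeq2's Wald test, 751 and 1312 with no filter on low counts, 645 and 1032 with at least 10 counts in every sample and 573 and 1044 without the *AGO2* knockout line. It moved by over 1.5 times in these cases: 1972 lower genes beside 509 higher with total counts only, 212 higher and 423 lower in the fit of only the 6 samples, and 278 higher and 487 lower when at least 2-fold was asked for. The fit of 6 samples has fewer samples to estimate the spread, with a coefficient of variation of 0.189 beside 0.152, and the cause of the other moves was not tested. Leaving out 1 sample at a time gave 389 to 705 higher and 562 to 1266 lower genes, the lowest counts without AGO1_KO 2, and 639 lower genes without AGO1_KO 1.

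The following alternatives were chosen after the data had been seen. The fit of 6 samples without each sample in turn gave 71, 243 and 128 higher genes without WT 1, 2 and 3 and 112, 55 and 115 without AGO1_KO 1, 2 and 3, beside 111, 515, 240, 88, 53 and 276 lower genes, with the line of 2 samples assumed to vary like the other. Without WT 2 and AGO1_KO 3 there were 580 higher and 1228 lower genes, with total counts that leave out the 10 genes with the most counts 599 and 1379, and with offsets corrected for GC content 800 and 897, which lowered the share of lower genes among the calls from 63.41% by over 10 percentage points, as total counts only raised it. Of the 264 named genes other than *AGO1* that were called, 232 of 264 were called again with corrected GC offsets, 192 of 264 without WT 2 and AGO1_KO 3, 240 of 264 with total counts only and 133 of the 258 tested in the fit of 6 samples.

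With the replicate number as a block, 634 genes passed as higher and 1130 as lower, *AGO1* had a log2 fold change of -1.89 with an adjusted p of 2.09e-06 by edgeR's quasi-likelihood test, and 244 of these 264 genes were called again. The numbers do not pair the samples: the deviations of same-numbered wild-type and *AGO1* knockout samples from their group means had correlations of 0.18, -0.001 and -0.22. At this depth and spread the median SE of a log2 fold change was 0.2.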

Other observations

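The called members of further gene lists are given here with log2 fold changes, beside calls for 3.15% of all genes as higher and 5.47% as lower in *AGO1* knockout cells. Of 54 ribosome biogenesis genes 1 was higher, *BOP1* (0.55). In that list 53 had a positive log2 fold change, with a median of 0.20 beside -0.01 over all genes tested. At an unadjusted p under 0.05 by edgeR, 13 of them were higher and 0 lower. Of 46 genes of the ATF4 and ER stress response 1 was lower, *EDEM1* (-0.75), and of 33 NRF2 targets 1 was lower, *OSGIN1* (-1.12). Of 39 sterol and fatty acid genes 2 were lower, the cholesterol exporter gene *ABCA1* (-1.33) and *MYLIP* (-0.61), which encodes a ligase that degrades the LDL receptor. Of 41 WNT targets and feedback genes 2 were lower, the WNT-inactivating enzyme gene *NOTUM* (-1.10) and the receptor gene *FZD1* (-0.78), and 1 was higher, *TNFRSF19* (0.79). Of 47 DNA methylation and Polycomb genes 3 were lower, *SETDB2* (-0.47), *PHF1* (-0.66) and *PCGF3* (-0.34). Of 49 interferon and RNA-sensing genes *DDX60L* (0.50) and *XAF1* (0.48) were higher and *IRF3* (-0.48) was lower. With corrected offsets *TNFRSF19*, *OSGIN1* and *IRF3* were not called (adjusted p = 0.0638, 0.0624 and 0.0922). Without WT 2 and AGO1_KO 3 *TNFRSF19*, *OSGIN1* and *DDX60L* were not called (adjusted p = 0.222, 0.0724 and 0.0784). Of 28 abundant long non-coding RNAs 1 was higher (3.57%) and 4 were lower (14.29%), with *LINC00963* (-1.10) and *HOTAIR* (-1.49) beside *UCA1* and *NEAT1*. Of 9 tested markers of colorectal epithelium 2 were lower (22.22%), and of 15 tested markers of other cell types 2 were higher (13.33%), *COL3A1* and *ACTA2*, and 2 were lower (13.33%), *COL1A1* and the muscle filament gene *DES* (-1.0). In the RISC core list of 7 genes only *AGO1* was called.

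By CPM per kb, *EZR*, *IER3*, *EREG*, *PTMS* and *EPCAM* were the 5 most abundant protein-coding genes called lower whose groups did not overlap, with log2 fold changes of -0.62, -0.72, -0.56, -0.42 and -0.34. *PTMS* had an adjusted p of 0.0391 by edgeR, and 0.432 with offsets corrected for GC content. Outside the protein-coding class *LINC02935* had 118, 91.0 and 90.1 normalized counts in wild-type cells and 5.16, 6.06 and 19.9 in *AGO1* knockout cells, a log2 fold change of -3.25. SNORA4 and SNORD118 had 0 counts in all 3 wild-type samples. In *AGO1* knockout cells SNORA4 had 18.6, 21.8 and 24.4 normalized counts, at least 6.97-fold higher, and SNORD118, the U8 snoRNA, had 21.7, 36.4 and 24.4, at least 8.86-fold higher.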
